A study of Mus musculus with 16 samples.

Results

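The ATF4 stress response and mitochondrial folate genes are a set of 10 genes named by function: Atf4, Ddit3, Asns, Trib3, Chac1, Sesn2, Mthfd2, Shmt2, Psat1 and Phgdh. They were followed across mouse hearts of 2 genotypes and 2 diets. All 10 were found among the 22184 genes measured, each read by 1 probe set whose only gene symbol was that gene. The 10 genes and the lists used below were chosen with earlier results of these data known. Their counts beside the shares of all genes are therefore descriptions and not tests of the set. The hearts came from 16 C57Bl/6J mice in 4 groups of 4. The groups were wild-type (WT) mice on standard chow (SC), WT mice on a high-fat diet (HFD), mutant mice on SC and mutant mice on HFD. The mutants are labelled transgenic Clock delta 19/delta 19 and are called Clock mice below. As background, delta 19 is a germline allele of Clock, so the mutation is not limited to the heart, and none of the labels names a promoter or Cre. Every mouse had eaten its diet for 24 weeks and was 32 weeks old, and all hearts were taken 7 hours into the light phase, so the values describe 1 time of day.

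ATF4 is the transcription factor of the integrated stress response. Kinases that sense lack of amino acids, unfolded protein in the endoplasmic reticulum, lack of haem, mitochondrial stress or viral RNA phosphorylate the initiation factor eIF2alpha, which lowers general translation while the Atf4 mRNA is translated more. Much of the control of ATF4 is therefore at translation, and its mRNA shows only a part of it. ATF4 switches on genes of amino acid supply, and in mouse hearts with defects of the mitochondria its targets are known to include enzymes of serine synthesis and of mitochondrial folate metabolism. In that pathway PHGDH and PSAT1 make serine, SHMT2 passes a carbon unit of serine to folate inside the mitochondria, and MTHFD2 oxidises the loaded folate.

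The upstream sequences of 5 of the genes are shown because Mthfd2, Atf4 and Ddit3 passed the test in at least 1 comparison within a diet or genotype, and because Asns and Chac1 carry the motif through which ATF4 is known to act. The searched motif is the core of the composite C/EBP-ATF site, TGATGNAA, on either strand. The canonical E-box of CLOCK and BMAL1, CACGTG, was searched too and does not overlap it. Sequences and starts are from RefSeq on GRCm38.p6, and each sequence is the 250 bases before the annotated start, 5′ to 3′ on the gene's strand, with matches to the composite core in capitals. Mthfd2 lies at chr6:83317605-83317854 (minus strand), Atf4 at chr15:80254934-80255183 (plus strand) and Ddit3 at chr10:127290543-127290792 (plus strand). Asns lies at chr6:7693210-7693459 (minus strand) and Chac1 at chr2:119350992-119351241 (plus strand). The start used for Mthfd2 lies inside the annotated span of that gene (chr6:83305704-83326011), so it is 1 of its annotated starts and not the outermost.
Mthfd2: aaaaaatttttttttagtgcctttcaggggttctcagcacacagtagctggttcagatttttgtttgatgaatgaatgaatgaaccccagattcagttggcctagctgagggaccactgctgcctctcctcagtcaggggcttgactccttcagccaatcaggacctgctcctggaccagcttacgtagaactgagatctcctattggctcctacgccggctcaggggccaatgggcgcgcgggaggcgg
Atf4: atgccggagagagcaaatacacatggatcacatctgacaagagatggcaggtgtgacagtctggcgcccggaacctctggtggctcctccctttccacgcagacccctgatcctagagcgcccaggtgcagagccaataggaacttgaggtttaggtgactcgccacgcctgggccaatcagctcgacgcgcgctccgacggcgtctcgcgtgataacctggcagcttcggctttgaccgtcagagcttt
Ddit3: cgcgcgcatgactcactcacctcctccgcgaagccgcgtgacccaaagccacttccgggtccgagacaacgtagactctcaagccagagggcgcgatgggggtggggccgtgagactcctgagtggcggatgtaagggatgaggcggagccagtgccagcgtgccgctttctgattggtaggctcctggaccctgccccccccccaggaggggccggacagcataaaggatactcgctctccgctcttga
Asns: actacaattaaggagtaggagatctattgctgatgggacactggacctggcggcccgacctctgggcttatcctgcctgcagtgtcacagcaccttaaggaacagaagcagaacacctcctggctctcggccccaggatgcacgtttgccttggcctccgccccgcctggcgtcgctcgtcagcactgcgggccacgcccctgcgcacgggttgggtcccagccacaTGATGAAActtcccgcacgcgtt
Chac1: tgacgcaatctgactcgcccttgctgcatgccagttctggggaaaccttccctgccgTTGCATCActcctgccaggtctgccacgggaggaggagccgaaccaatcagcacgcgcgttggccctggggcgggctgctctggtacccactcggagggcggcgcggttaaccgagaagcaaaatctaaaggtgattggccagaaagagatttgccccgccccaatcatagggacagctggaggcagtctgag

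The match in Asns began 23 bases before the start and the match in Chac1 193 bases before it. In human, ASNS is switched on by ATF4 through a site of this kind, called the nutrient-sensing response element. A further match lay in Trib3, 15 bases into the transcript, at chr2:152344028-152344057 (minus strand), where the surrounding 30 bases are shown with the match in capitals.
Trib3: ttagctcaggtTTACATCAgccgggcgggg
In the window of 300 bases, from 250 before to 50 after the start, 3 of the 10 genes held the composite core, and 3.97% of 32851 promoters of the same length did. The E-box was found in 0 of the 10, against 7.15% of all promoters. A match is a description of these letters, and draws no line from a factor to a gene. None of Mthfd2, Atf4 and Ddit3 held either motif in its window.

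The values are centred log2 values, in which 0 is the median of the 16 hearts for that probe set. The base of 2, and the reading of positive as higher, are assumptions. They compare hearts with each other and hold no level, so genes cannot be ranked by abundance, and a gene near background cannot be told from a steady one. Presence of the 12 cardiomyocyte markers measured could not be checked for the same reason. Each of the 16 arrays was closer to the rest of its group than to the remaining arrays, and limma's array weights ran from 0.656 to 1.42. Clock SC replicate 4 had the lowest weight and the weakest link to its group. Its mean Pearson r was 0.005 with its group and -0.053 with the other arrays. Among 14 E-box-driven clock genes 11 fell in Clock hearts averaged over the diets, where 1.44% of all genes passed as lower. On SC 5 of the 14 fell, against 0.252% of all genes, and on HFD 11 fell, against 0.771%. The mean of the 14 genes lay between -0.37 and -0.10 in the 8 Clock hearts. It lay between 0.46 and 0.86 in 7 WT hearts, while WT SC replicate 4 lay at -0.02. That array stands apart from its group, and results that turn on it are given without it below.

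Mthfd2 had the largest genotype difference of the 10 genes on both diets. In WT hearts it read -0.26, -0.25, -0.37 and -0.22 on SC and -0.02, 0.02, -0.12 and -0.25 on HFD. In Clock hearts on SC it read 0.47, 0.18, -0.18 and 0.17, and in Clock hearts on HFD 0.87, 0.84, 0.98 and 0.88. The Clock hearts on HFD stood above all 12 others and Clock SC replicate 3 lay within the range of the WT hearts on HFD. The group means rose in the order WT SC (-0.27 ± 0.07, SD, n = 4), WT HFD (-0.09 ± 0.12), Clock SC (0.16 ± 0.27) and Clock HFD (0.89 ± 0.06), and the arrays of WT HFD and Clock SC overlap. 

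**Figure D1:**
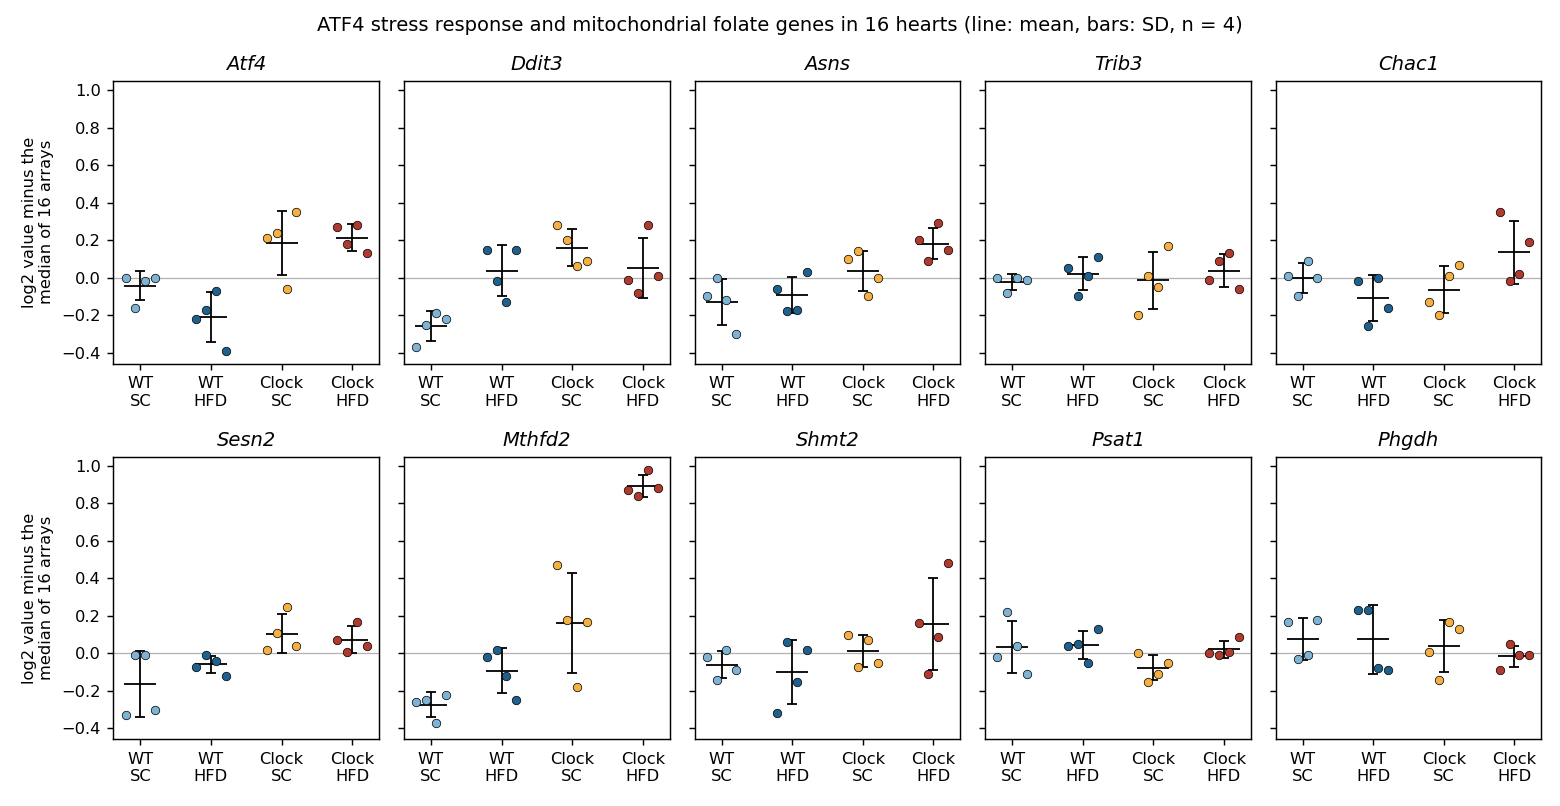
Values of the 10 genes on each of the 16 arrays (y axis, log2 value minus the median of the 16 arrays) in the 4 groups (x axis). Points are hearts, the short line is the group mean and the bars are the SD (n = 4). For Mthfd2 the 4 Clock hearts on HFD lie between 0.84 and 0.98, above the other 12 hearts.

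On HFD, Mthfd2 was 1.98-fold higher in Clock than in WT hearts, a log2 difference of 0.98 ± 0.10 (standard error of the limma fit, adjusted p = 5.48e-05). It was the gene with rank 8 of 22184 by p in this comparison. Atf4 rose too, by 0.42 ± 0.08 (adjusted p = 0.00939). These 2 of 10 genes passed adjusted p under 0.05 as higher and 0 as lower, where 1.13% of all genes passed as higher and 0.771% as lower. The median difference of the 10 genes was 0.19 against 0.00 over all genes. The groups did not overlap for 4 of the 10, Mthfd2, Atf4, Asns and Sesn2, all higher in Clock hearts, against 5.09% of all genes apart and higher.

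Atf4 read -0.22, -0.17, -0.07 and -0.39 in WT hearts on HFD and 0.27, 0.18, 0.28 and 0.13 in Clock hearts on HFD. On SC it read 0.00, -0.16, -0.02 and 0.00 in WT and 0.21, 0.24, -0.06 and 0.35 in Clock hearts. On SC the groups overlap through Clock SC replicate 3, and Atf4 differed by 0.23 ± 0.08, short of the threshold (adjusted p = 0.298). The group with the lowest mean was WT HFD (-0.21 ± 0.13, SD, n = 4), below WT SC (-0.04 ± 0.08), while Clock SC (0.18 ± 0.17) and Clock HFD (0.21 ± 0.07) lay within each other's spread. With the array mean of the immediate early genes as a covariate the difference on HFD was 0.37 (adjusted p = 0.0427). That list had means from -0.64 to 0.05 in WT and from -0.43 to 0.36 in Clock hearts on HFD, and its part in the result was otherwise not tested.

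Asns, the asparagine synthetase with the composite core near its start, read -0.06, -0.18, -0.17 and 0.03 in WT and 0.20, 0.09, 0.29 and 0.15 in Clock hearts on HFD. These groups are apart, but the 0.27 ± 0.07 between them missed the threshold (adjusted p = 0.0606), and without WT SC replicate 4 it had adjusted p = 0.0354. On SC, Asns read -0.10, 0.00, -0.12 and -0.30 in WT and 0.10, 0.14, -0.10 and 0.00 in Clock hearts, and these groups overlap. The difference there was 0.17 ± 0.07 (adjusted p = 0.439).

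Ddit3, which encodes CHOP, the transcription factor that promotes cell death under lasting stress, passed on SC. It read -0.37, -0.25, -0.19 and -0.22 in WT hearts on SC and 0.28, 0.20, 0.06 and 0.09 in Clock hearts on SC. The 2 groups are apart, and the difference was 0.42 ± 0.08 (1.34-fold, adjusted p = 0.0293). On HFD it read 0.15, -0.02, -0.13 and 0.15 in WT and -0.01, -0.08, 0.28 and 0.01 in Clock hearts. Those groups overlap, and the difference was 0.01 with a 95% interval from -0.16 to 0.19. The call on SC was kept in 12 of 16 fits without 1 array and lost without Clock SC replicate 1 (adjusted p = 0.113) or 2 (0.0878) or WT SC replicate 1 (0.0779) or 2 (0.0871).

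On SC, 1 of 10 genes passed as higher and 0 as lower, where 0.239% of all genes passed as higher and 0.252% as lower. The groups did not overlap for Ddit3, Mthfd2 and Sesn2, all 3 higher in Clock hearts, 3 of 10 against 2.58% of all genes apart and higher. Mthfd2 was 0.43 ± 0.10 higher without passing (adjusted p = 0.0667), and passed without Clock SC replicate 3 (0.55, adjusted p = 0.00558). The median difference of the 10 genes was 0.12 on SC.

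Sesn2, whose product senses leucine and restrains mTORC1, was the 1 gene of the 10 with no overlap between all 8 Clock and all 8 WT hearts. The WT hearts read -0.33, -0.01, -0.01 and -0.30 on SC and -0.07, -0.01, -0.04 and -0.12 on HFD. The Clock hearts read 0.02, 0.11, 0.25 and 0.04 on SC and 0.07, 0.01, 0.17 and 0.04 on HFD. The highest WT hearts and the lowest Clock hearts lie close to each other, and WT SC replicates 1 and 4 lie well below the other WT hearts. The difference was 0.27 ± 0.07 on SC (adjusted p = 0.16) and 0.13 ± 0.07 on HFD (adjusted p = 0.482).

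**Figure D2:**
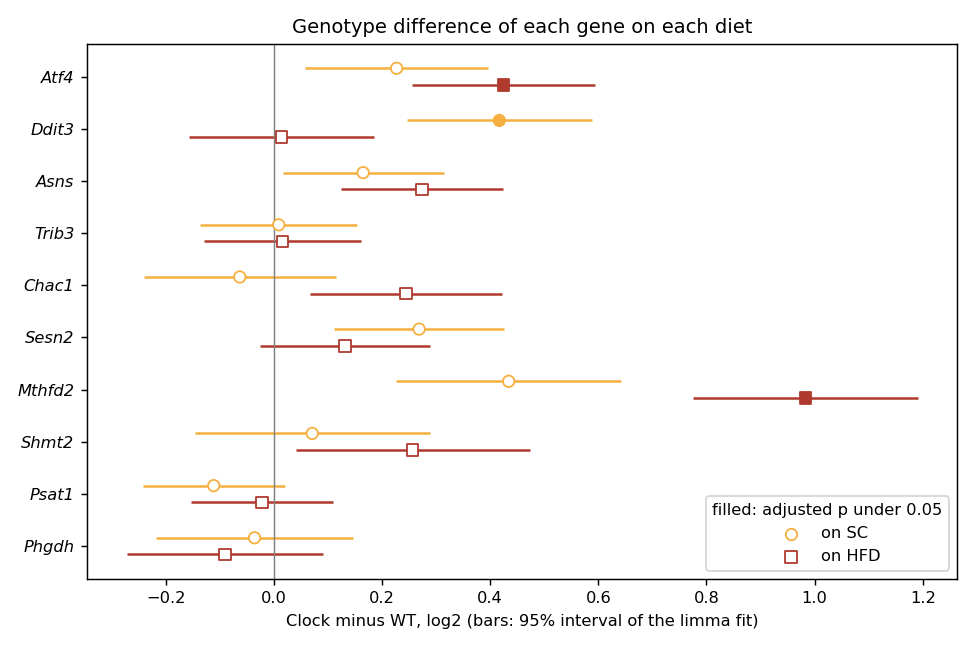
Clock minus WT difference of each gene (x axis, log2) on SC (circles) and HFD (squares), with the 95% interval of the limma fit. Filled points had adjusted p under 0.05: Ddit3 (0.42) on SC, and Atf4 (0.42) and Mthfd2 (0.98) on HFD.

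The other 5 genes did not pass in any comparison. TRIB3 is a pseudokinase that restrains AKT and ATF4, and Trib3 ran from -0.20 to 0.17 over the 16 hearts. Its genotype difference was 0.01 on SC (95% interval -0.14 to 0.15) and 0.02 on HFD (-0.13 to 0.16). Chac1, which encodes an enzyme that breaks down glutathione, ran from -0.26 to 0.35. It had an unadjusted p of 0.0101 on HFD (0.24 ± 0.08, adjusted p = 0.184) and lay at -0.06 ± 0.08 on SC. These 2 genes carry the composite core like Asns, and none of the 3 passed within a diet.

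Of the folate and serine enzymes among the 10 genes, Mthfd2 stood alone in passing. Shmt2 ran from -0.32 to 0.48, with its highest value in Clock HFD replicate 4, and its genotype difference was 0.26 ± 0.10 on HFD (adjusted p = 0.263) and 0.07 ± 0.10 on SC. Psat1 ran from -0.15 to 0.22 and Phgdh from -0.14 to 0.23. Their differences on HFD were -0.02 (95% interval -0.15 to 0.11) and -0.09 (-0.27 to 0.09), so a rise of the size seen for Mthfd2 lies outside both intervals. On SC they were -0.11 (-0.24 to 0.02) and -0.04 (-0.22 to 0.15).

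Averaged over the diets, 5 of 10 genes rose in Clock hearts and 0 fell, where 2.44% of all genes passed as higher and 1.44% as lower. These were Mthfd2 (0.71 ± 0.07, adjusted p = 1.88e-05), Atf4 (0.33 ± 0.06, adjusted p = 0.00295), Asns (0.22 ± 0.05, adjusted p = 0.0188), Sesn2 (0.20 ± 0.05, adjusted p = 0.0432) and Ddit3 (0.22 ± 0.06, adjusted p = 0.0450). The groups of 8 were apart for Sesn2 alone, against 0.419% of all genes apart and higher. Mthfd2, Atf4 and Asns passed in each of 24 other settings, Sesn2 in 10 and Ddit3 in 8. Without WT SC replicate 4, Sesn2 (adjusted p = 0.0839) and Ddit3 (0.0628) did not pass and the other 3 did. The median difference of the 10 genes was 0.18, against 0.00 over all genes. This average shares its arrays with both single-diet comparisons and repeats their content.

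Markers of other cell types moved with genotype as well. Averaged over the diets, 5 of 12 endothelial and 4 of 12 fibroblast markers rose in Clock hearts, with none of either falling. Over all genes 2.44% passed as higher and 1.44% as lower. Of 9 smooth muscle and pericyte markers 1 rose and 0 fell. In limma's test 6 of these 9 (66.7%) had an unadjusted p under 0.05, against 16.5% of all genes, and their differences ran from -0.49 to 0.36. The mean of the endothelial list ran from -0.23 to 0.02 in the 8 WT and from -0.02 to 0.19 in the 8 Clock hearts, and that of the fibroblast list from -0.23 to 0.14 and from -0.08 to 0.23. In whole myocardium, more cells of a type and more RNA per cell cannot be told apart. On HFD alone 3 of 12 endothelial and 0 of 12 fibroblast markers passed as higher, against 1.13% of all genes. In limma's test 8 of 12 endothelial (66.7%) and 5 of 12 fibroblast markers (41.7%) had an unadjusted p under 0.05 there. Over all genes 13.5% did. The groups on HFD were apart and higher for 5 endothelial markers and 1 fibroblast marker, against 5.09% of all genes. They were apart and lower for 0 and 1. On SC 0 markers of either list passed. On SC, where Ddit3, Mthfd2 and Sesn2 stood apart, 7 of 12 fibroblast markers were apart and higher in Clock hearts too, against 2.58% of all genes. Their median difference there was 0.26, with 7 of 12 at an unadjusted p under 0.05 in limma's test, and that of the endothelial markers was 0.15, also with 7 of 12. Of the smooth muscle and pericyte markers 4 of 9 (44.4%) had such a p on SC, against 9.76% of all genes. The part of these shifts in the rises of Mthfd2, Atf4, Asns, Sesn2 and Ddit3 was not tested.

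The diet comparison asks what HFD did in each genotype. In Clock hearts Mthfd2 rose by 0.73 ± 0.10 on HFD (1.66-fold, adjusted p = 0.00667), the gene with rank 3 of 22184 by p. The 4 Clock hearts on HFD lay above all 4 on SC. Mthfd2 was the 1 gene of 10 whose groups were apart, where 2.89% of all genes were apart and higher on HFD. It was the 1 gene of 10 that passed as higher and 0 passed as lower, where 0.0496% of all genes passed as higher and 0.0406% as lower. In a fit of the 8 Clock arrays alone the same 0.73 missed the threshold (adjusted p = 0.0761). Chac1 (0.20 ± 0.08, adjusted p = 0.519) and Asns (0.15 ± 0.07, adjusted p = 0.602) came next by p. Shmt2 differed by about as much as Asns with a wider error (0.15 ± 0.10, adjusted p = 0.782), and the groups of all 3 overlap.

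In WT hearts 0 of 10 genes passed limma's test between the diets, where 0.185% of all genes passed as higher and 0.167% as lower, and 1 of 10 had an unadjusted p under 0.05, close to the 10.7% of all genes that did. That gene was Ddit3, at 0.29 ± 0.08 higher on HFD (adjusted p = 0.140), with its groups apart and higher on HFD as for 2.80% of all genes. Mthfd2 was 0.18 ± 0.10 higher (95% interval -0.03 to 0.39, adjusted p = 0.546), and Atf4 was 0.17 lower (-0.17 ± 0.08, adjusted p = 0.474). Averaged over the genotypes, Mthfd2 rose on HFD by 0.46 ± 0.07 (adjusted p = 0.00365), 1 of 10 genes higher and 0 lower. In the same average 3 of 12 endothelial markers fell on HFD, and their part was not tested. Over all genes, 0.811% passed as higher and 0.726% as lower in that average.

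**Figure D3:**
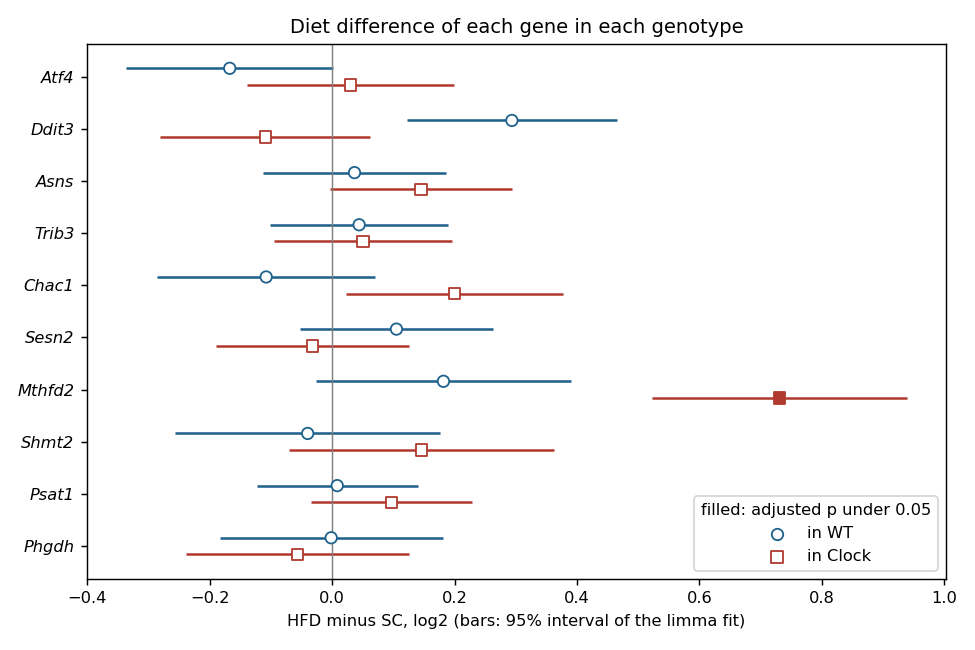
HFD minus SC difference of each gene (x axis, log2) in WT (circles) and Clock hearts (squares), with the 95% interval of the limma fit. The filled square, Mthfd2 in Clock hearts (0.73), was the only difference with adjusted p under 0.05.

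Whether the mutation altered the diet difference was asked with the interaction of genotype and diet. In limma's test 0 of 10 genes and 0 of 22184 (0%) passed, while 3 of 10 and 1122 of 22184 (5.06%) had an unadjusted p under 0.05. Mthfd2 had the largest of the 10, with the diet difference 0.55 ± 0.14 larger in Clock than in WT hearts (95% interval 0.25 to 0.84, unadjusted p = 0.00111, adjusted p = 0.760). Ddit3 went the other way (-0.40 ± 0.11, unadjusted p = 0.00283, adjusted p = 0.760), and Chac1 had 0.31 ± 0.12 (unadjusted p = 0.0197, adjusted p = 0.935). For Mthfd2 the diet differences side by side were 0.18 in WT and 0.73 in Clock hearts, and for Ddit3 0.29 and -0.11. After correction over all genes these differences between the genotypes did not pass.

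The other known targets of ATF4 include amino acid transporters, tRNA synthetases and further stress genes, and 39 of 42 listed were measured. On HFD, 5 of the 39 rose in Clock hearts and 1 fell, with a median difference of 0.15 against 0.00 over all genes and 19 of 39 at an unadjusted p under 0.05. Over all genes 1.13% passed as higher, 0.771% passed as lower and 13.5% had an unadjusted p under 0.05. Ddit4, which encodes an inhibitor of mTORC1, rose by 0.89 ± 0.12 (adjusted p = 0.000685) from a mean of -0.19 ± 0.19 (SD, n = 4) in WT to 0.70 ± 0.17 in Clock hearts. Atf5, which encodes a transcription factor of the mitochondrial stress response, rose by 0.44 ± 0.08 (adjusted p = 0.00465) and was apart between all 8 WT and all 8 Clock hearts. The tRNA synthetase genes Sars (0.42 ± 0.10), Yars (0.34 ± 0.07) and Nars (0.31 ± 0.06) rose, and Cth, the cystathionine gamma-lyase that makes cysteine, fell (-0.34 ± 0.08). Nars and Yars are named beyond the 4 largest by a choice made after their values were seen. Atf3, a stress-induced repressor, had the next largest difference after Ddit4 and did not pass (0.84, also named after its value was seen). The count of 6 was 3 without Clock HFD replicate 3 or without WT HFD replicate 3.

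On SC, Ddit4 (0.55 ± 0.12, adjusted p = 0.0479) was the 1 of these 39 that passed, and the median difference was 0.02. Over all genes 0.239% passed as higher there. An unadjusted p under 0.05 was found for 5 of 39 (12.8%) against 9.76% of all genes. In Clock hearts Nars was the 1 of 39 that rose on HFD (0.35 ± 0.06, adjusted p = 0.0304) and 0 fell, where 0.0496% of all genes passed as higher. There 14 of 39 (35.9%) had an unadjusted p under 0.05 in limma's test, against 8.42% of all genes. The groups were apart and higher on HFD for 8 of 39 and apart and lower for 2, against 642 and 536 of 22184 genes. In WT hearts the amino acid transporter genes Slc7a1 (-0.67 ± 0.12, adjusted p = 0.0190) and Slc38a2 (-0.45 ± 0.09, adjusted p = 0.0425) fell on HFD. Both calls were lost without WT HFD replicate 1, WT HFD replicate 4 or WT SC replicate 1 and with the immediate early covariate. They were the 2 of 39 that passed there, where 0.167% of all genes passed as lower. An unadjusted p under 0.05 was found for 6 of 39 (15.4%) against 10.7% of all genes. Averaged over the diets 5 of 39 rose in Clock hearts and 1 fell, where 2.44% of all genes passed as higher and 1.44% as lower. Among those that rose was Gpt2, the mitochondrial alanine transaminase (0.29 ± 0.06, adjusted p = 0.00998). Averaged over the genotypes 3 of 39 rose on HFD and 2 fell, where 0.811% of all genes passed as higher and 0.726% as lower.

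**Figure D4:**
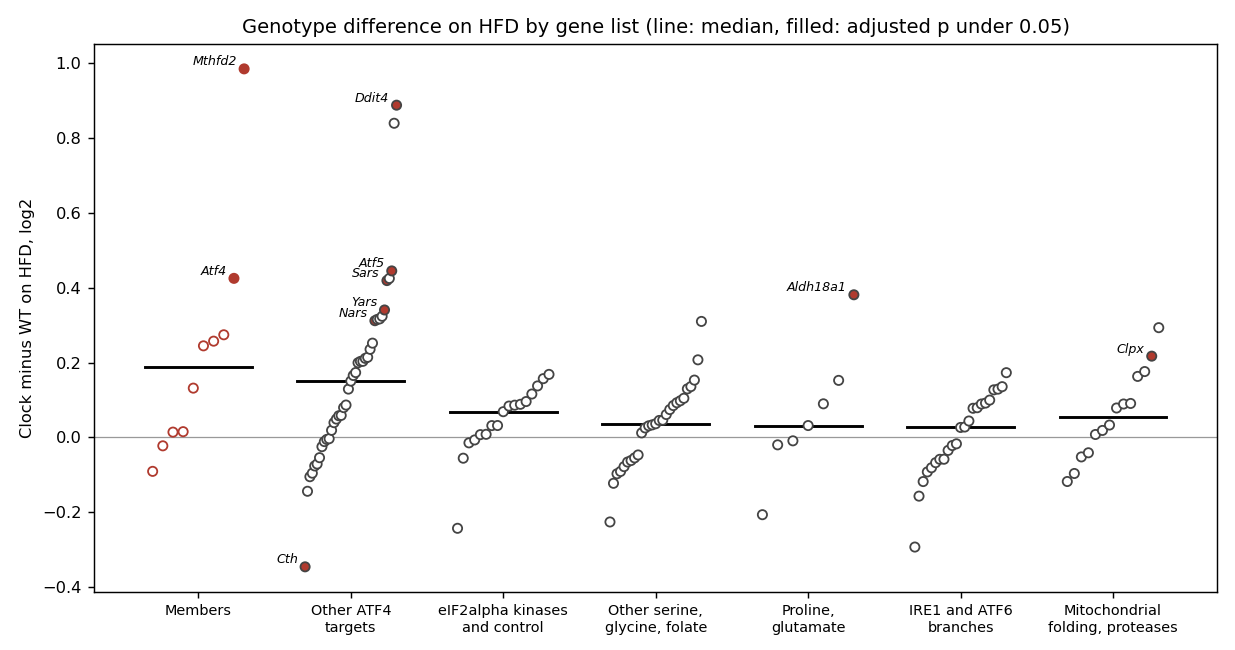
Clock minus WT difference on HFD (y axis, log2) of every measured gene of 7 lists (x axis), in rising order within each list. The line is the list's median and filled points had adjusted p under 0.05, among them Mthfd2 (0.98), Ddit4 (0.89), Atf5 (0.44) and Atf4 (0.42).

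Upstream of ATF4, none of the 17 measured genes for the eIF2alpha kinases and their control passed limma's test in any comparison, with 2 at an unadjusted p under 0.05 on each diet. These 2 are 11.8% of the list, where 9.76% of all genes had such a p on SC and 13.5% on HFD. The smallest p on HFD was that of Eif2ak2, the kinase that senses double-stranded RNA (-0.24 ± 0.09, adjusted p = 0.217). These kinases act through phosphorylation, which mRNA does not show. Of 23 genes of the IRE1 and ATF6 branches, the other arms of the response to unfolded protein in the endoplasmic reticulum, 0 passed in any comparison, with 4 at an unadjusted p under 0.05 on HFD and 2 on SC. These shares of 17.4% and 8.7% are near the same all-gene shares. The share was higher averaged over the diets (26.1% against 16.5% of all genes), for diet in WT hearts (21.7% against 10.7%) and for the interaction (17.4% against 5.06%). It was lower, at 4.35%, for diet in Clock hearts (against 8.42%) and for diet averaged over the genotypes (against 13.2%). Their median genotype difference on HFD was 0.03, and Dnajb9, a chaperone induced by XBP1, had the smallest p (-0.29 ± 0.09, adjusted p = 0.116).

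Of 27 further serine, glycine and folate genes 0 passed within a diet, with 3 at an unadjusted p under 0.05 on HFD (11.1%) and 2 on SC (7.41%), both below the all-gene shares, and the median difference on HFD was 0.04. Mtr, the methionine synthase, had the smallest p on both diets (0.31 ± 0.08, adjusted p = 0.0632 on HFD) and rose averaged over the diets (0.28 ± 0.06, adjusted p = 0.00972). Slc25a32, the carrier that brings folate into mitochondria, rose on HFD averaged over the genotypes (0.27 ± 0.06, adjusted p = 0.0244). In Clock hearts alone it was 0.38 ± 0.08 higher on HFD without passing (adjusted p = 0.0873). Of 7 genes of proline and glutamate synthesis Aldh18a1, the enzyme that starts proline synthesis from glutamate, rose in Clock hearts on HFD (0.38 ± 0.08, adjusted p = 0.0242). Of 14 genes of mitochondrial protein folding and proteases Clpx, the unfoldase of the matrix protease ClpXP, rose there (0.22 ± 0.05, adjusted p = 0.0289). Each was the 1 gene of its list that passed, where 1.13% of all genes passed as higher. In limma's test 3 of 7 (42.9%) and 4 of 14 (28.6%) had an unadjusted p under 0.05 there, against 13.5% of all genes. For diet in Clock hearts 4 of 7 (57.1%) and 5 of 14 (35.7%) had such a p, against 8.42%. Between the genotypes on HFD, 2 of 7 and 5 of 14 were apart and higher in Clock hearts, against 5.09% of all genes. Averaged over the diets Aldh18a1 (0.25 ± 0.06, adjusted p = 0.0256) and Clpx (0.17 ± 0.03, adjusted p = 0.00841) rose, and Glul, the glutamine synthetase of the proline and glutamate list, fell (-0.27 ± 0.05, adjusted p = 0.00654). Lonp1, which encodes another matrix protease, rose in that average as well (0.28 ± 0.07, adjusted p = 0.0271). Averaged over the genotypes, 1 of the 14 folding and protease genes passed as higher on HFD, where 0.811% of all genes did. In limma's test 7 of 14 (50%) had an unadjusted p under 0.05 there, against 13.2% of all genes.

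Among themselves the 10 genes formed no single block across hearts. Over the 16 arrays 27 of their 45 pairs had a Pearson r above 0, with a median of 0.14, and 21 of 45 had one after group means were removed, with a median of -0.01. The highest pair was Asns with Mthfd2 (r = 0.80, and 0.27 within groups), and Asns with Ddit3 was highest within groups (0.59). These values describe 16 arrays that share groups and scaling. The genes whose pattern was most like that of Atf4 over the 16 arrays were Homer1 (r = 0.91), Plekhg1 (0.87) and Nfil3 (0.86). Those most like Mthfd2 were Ddit4 (0.90), Rnf115 (0.89) and Prune2 (0.89), and for Ddit4 and Prune2 this was 0.07 and 0.11 within groups. For Ddit3 they were Tcf15 (0.84), Ccdc71 (0.81) and Acin1 (0.79).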

How the data were processed

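RNA was extracted with Trizol, and biotinylated cRNA was made from 500 ng of total RNA per heart for 1 Affymetrix array each, per the labels' protocols. The deposited table holds values of 34351 probe sets, taken here as log2. They are centred so that the median of a probe set over all arrays is 0 (at most 5e-07 away). The sources used here do not give the log base, the sign or how the arrays were background-corrected, summarised, normalized and centred. Probe sets with 1 gene symbol (23525) were averaged per gene, and 1810 with several symbols and 9016 with none listed were left out.

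Tests used limma (version 3.58.1, in R version 4.3.3) on 22184 genes, with lmFit and eBayes on 4 group means (12 residual degrees of freedom, 4.15 prior, two-sided, Benjamini-Hochberg over all genes, adjusted p under 0.05). The fit was also run on simulated arrays with independent normal errors and, for each gene, the same spread on every array. Those arrays lack the unequal weights of the real ones, and no result here rests on them. Errors marked ± are limma standard errors unless called SD. The arrays of different mice are the replicates, and their number limits the precision. The members and lists were chosen with earlier results of these data known. Named list genes are among the up to 4 passing per list and comparison by size, or have the smallest p. Exceptions are marked in the text, and not every passing gene is named. Of 290 genes in 8 pathway and 12 cell type lists 266 were matched. The other settings were another probe set rule, probe sets of several symbols, robust eBayes, array weights, a repeated quantile normalization, only the arrays compared, a replicate block, an immediate early gene covariate, and leaving out arrays.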

Additional observations from a re-analysis of the deposited data

Results flagged for a closer look

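Of the 40 sets of 4 arrays (10 genes in 4 groups), 3 held an array far from the other 3, and chance alone flags about 1 in 20 such sets. Atf4 in WT SC replicate 2 read -0.157 while the other 3 arrays lay between -0.015 and 0.002. Trib3 in the same array read -0.085, with the others between -0.009 and 0.005. Psat1 in Clock HFD replicate 4 read 0.085, with the others between -0.006 and 0.006. No cause was tested.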

How the results depend on the processing

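Over 25 other settings, 1679 of 1720 values of the 10 genes stayed on their side of the threshold, 37 lost the call and 4 gained it. Most of the 1720 were not called as reported, so the total says little about how stable the calls are. The 37 came from 4 calls. Ddit3 kept its call in 8 of 24 settings averaged over the diets and in 19 of 25 on SC. Sesn2 kept it in 10 of 24 averaged over the diets, and Mthfd2 in 24 of 25 for diet in Clock hearts. No called value changed sign, and 44 values called in neither fit did. Without WT SC replicates 2 and 4 together 0 of the 10 genes passed on SC and 3 averaged over the diets, and genes called fell to 49 on SC, 11 for diet in WT, 505 averaged over the diets and 141 for diet averaged over the genotypes. With only the arrays compared, genes called were 38 on SC, 15 for diet in WT and 7 for diet in Clock hearts, where 0 of the 10 passed. The immediate early covariate gave 12 for diet in WT, 112 for diet averaged, and 3 of the 10 averaged over the diets. For diet in Clock hearts, 20 genes called as reported became 37 with probe sets of several symbols, 53 with array weights and 43 after quantile normalization. With replicate number as a replicate block, 0 of the 10 passed on SC, and 41 genes were called for diet in WT and 12 for diet in Clock hearts, against 78 and 20. The deviations of same-numbered arrays correlated over 0.1 in 3 of 24 pairs and those of other-numbered arrays in 5 of 72, with medians of -0.02 and 0.001. Correlations over all genes cannot show whether the numbers share a batch, and the main fit did not pair the hearts. Leaving out 1 array gave, as reported and then from lowest to highest, 109 and 49 to 144 genes called on SC, 422 and 241 to 490 on HFD, 78 and 28 to 90 for diet in WT, 20 and 6 to 27 for diet in Clock hearts and 341 and 218 to 329 for diet averaged. Of the 10 genes, 0 to 2 passed on SC and 3 to 5 averaged over the diets.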
